A study of Mus musculus with 6 samples.

Results

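Genes of replication origin licensing and helicase activation were read in mouse bone marrow: Mcm2, Mcm3, Mcm4, Mcm5, Mcm6, Mcm7, Mcm10, Cdc6, Cdt1 and Cdc45. They were found by symbol and are 10 of the 22838 genes in the table, with 1 row each. RNA sequencing had been done on tibial and femoral marrow of 3 Cbx2-/- mice and 3 wild-type mice, all 3 weeks old and of the 129/C57BL/6 strain. Cbx2 encodes a Polycomb chromobox protein, and the series asks how it acts on bone and fat cell formation in long bones. The mean body weight was 4.0 g for the Cbx2-/- mice and 12.3 g for the wild-type mice, per the labels, so genotype and body size cannot be told apart. The labels describe neither the deleted part of Cbx2 nor the sex of the mice, and no other allele or treatment is given for either genotype. Values are FPKM, sequenced fragments scaled to transcript length and to the mapped fragments of the library, and marrow was read whole, so fewer cells of a type and less RNA per cell cannot be told apart.

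Licensing prepares chromosomal DNA for a single round of copying. In G1, the origin recognition complex marks origins, and Cdc6 and Cdt1 load rings of Mcm2 to Mcm7 onto it as a double hexamer that is not yet active. At the start of S phase, Cdc45 and the GINS complex join the loaded ring to form the moving helicase, and Mcm10 helps to activate it. Geminin binds Cdt1 and prevents a repeat of licensing in the same cycle. Transcription of these genes is known to be driven largely by E2F factors, and dividing marrow cells, among them erythroblasts, precursor B cells and promyelocytes, are rich in their transcripts.

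All 10 licensing genes had a lower mean FPKM in Cbx2-/- marrow than in wild-type marrow, but none passed the test. Wild-type means exceeded Cbx2-/- means by 1.38-fold for Cdc45 to 2.25-fold for Cdc6. The values of Cbx2-/- replicate 3 were 18.3% to 43.7% of the wild-type mean, while those of Cbx2-/- replicates 1 and 2 lay much nearer to it. In limma, 0 of 10 genes had an adjusted p under 0.05, and 3 of 10, Cdc6, Mcm10 and Mcm7, had an unadjusted p under 0.05. Over all 12006 tested genes, 8.31% were called lower, 8.8% were called higher, and 32.5% had an unadjusted p under 0.05. Adjusted p values of the 10 genes ran from 0.0578 for Cdc6 to 0.256 for Mcm3. Every Cbx2-/- library lay below every wild-type library for 7 of 10 genes, against 18.2% of the tested genes.

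**Figure D1:**
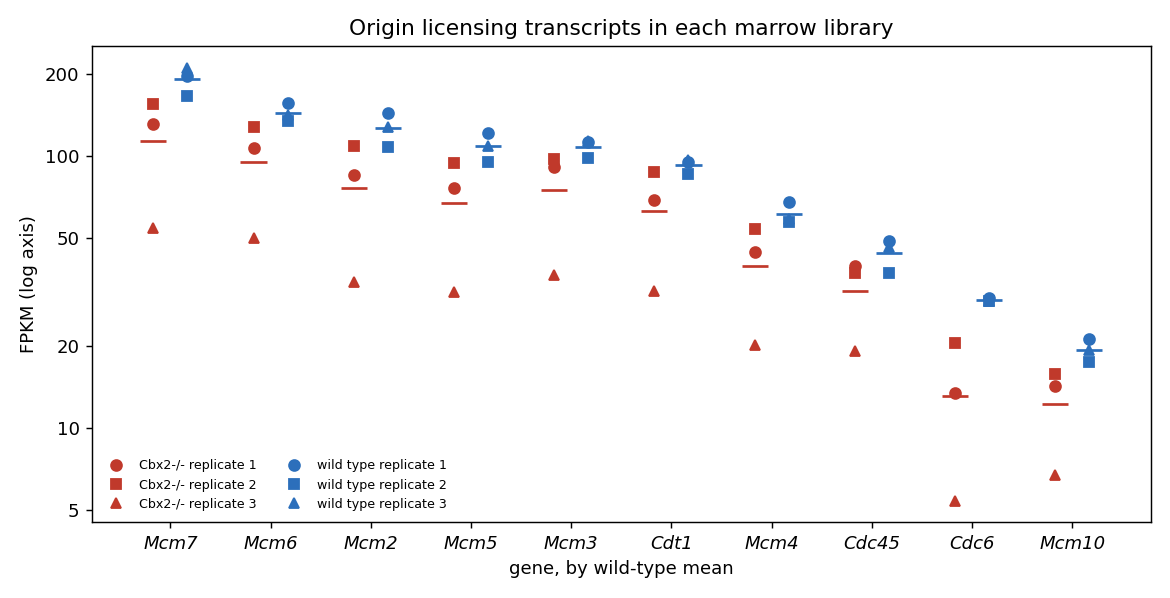
FPKM (log axis) of the 10 licensing genes in 3 Cbx2-/- and 3 wild-type libraries, with 1 point per library. For all 10 genes, Cbx2-/- replicate 3 is the lowest of the 6 libraries, and the wild-type libraries lie close together.

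The 6 libraries differed in more than these genes. Cbx2 itself had 2.11, 1.87 and 1.88 FPKM in Cbx2-/- replicates 1, 2 and 3, against 2.90, 3.83 and 2.75 FPKM in wild-type replicates 1, 2 and 3, with a limma adjusted p of 0.0558. Skeletal muscle markers summed to 350.2 and 378.1 FPKM in Cbx2-/- replicates 1 and 2 and to 11.5 FPKM in Cbx2-/- replicate 3, against 20.6 to 26.5 FPKM in wild-type libraries. Haemoglobin genes took 10.9%, 7.02% and 20.5% of the summed FPKM in Cbx2-/- replicates 1, 2 and 3, against 13.9% to 17.8% in wild-type libraries. The summed FPKM of a library was 599601 to 741192 in Cbx2-/- marrow and 662832 to 718714 in wild-type marrow. The read total of a library is unknown, so no counting interval can be set on an FPKM value. From values under 0.15 FPKM, where 1 read sets the step, depth relative to wild-type replicate 1 was estimated at 1.19, 1.02 and 1.06 for Cbx2-/- replicates 1, 2 and 3, and at 0.914 and 1.22 for wild-type replicates 2 and 3.

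The genes lie apart in the genome. On mm10, the table puts Mcm3 at chr1:20803014-20820213, Mcm6 at chr1:128331591-128359656, Mcm10 at chr2:4990724-5012791, Mcm7 at chr5:138164589-138171862 and Mcm2 at chr6:88883474-88898780, all on the minus strand. Mcm4 at chr16:15623897-15637400 and Cdc45 at chr16:18780447-18811972 are also on the minus strand. Mcm5 at chr8:75109509-75128439, Cdt1 at chr8:122568015-122573130 and Cdc6 at chr11:98907889-98923942 are on the plus strand. In GENCODE vM21, Mcm7 overlaps Cops6 on the opposite strand and holds Mir25, Mir93 and Mir106b. Cdt1 overlaps the gene model Gm20388 on its own strand, and Cdc45 overlaps Ufd1 on the opposite strand. No source used here gives the strand setting of the authors' quantification, so the values of these 3 genes may hold reads of their neighbours. Cops6 had 68.9, 79.5 and 40.1 FPKM in Cbx2-/- replicates 1, 2 and 3, against 69.1, 64.3 and 70.6 FPKM in wild-type replicates 1, 2 and 3, with a limma adjusted p of 0.709.

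Promoter sequences are shown because E2F-type words stand in the start regions of 6 of 9 licensing genes. A part of these words in the expression values was not tested. RefSeq windows on GRCm38.p6, from 250 bases before to 50 bases after a start site, matched 9 of 10 genes. TTTGGCGC, TTTCCCGC and GGCGGGAA were searched on both strands, where a GGCGGGAA and a TTTCCCGC match can share bases, as they do in Mcm3. At least 1 of the 3 words stood in windows of 6 of 9 genes, against 3.21% of 32851 windows in the table and 5.84% of the 11651 windows of tested genes. TTTGGCGC was found in Mcm3, Mcm5, Mcm6 and Cdt1, and in 0.514% of all windows and 0.961% of those of tested genes. TTTCCCGC was found in Mcm3, Mcm7 and Cdc6, and in 1.07% of all windows and 1.94% of those of tested genes. GGCGGGAA was found in 1 of 9 genes, Mcm3, and in 2.19% of all windows and 4.01% of those of tested genes. CCAAT, the binding word of NF-Y, was found on either strand in 7 of 9 genes, all but Cdc6 and Cdt1, and in 37.4% of all windows. Below, capitals mark an E2F-type word on either strand, and every sequence is written 5′ to 3′ on the strand of its gene. Mcm6 is given as the 250 bases before the start site (chr1:128359706-128359955, minus strand), which hold 2 matches, 110 and 47 bases before that site. The others are short stretches around 1 match each: Mcm3 at chr1:20820263-20820284 (minus), Mcm5 at chr8:75109350-75109377 (plus), Cdt1 at chr8:122568037-122568064 (plus), Mcm7 at chr5:138172031-138172058 (minus) and Cdc6 at chr11:98908003-98908030 (plus).
Mcm6, upstream: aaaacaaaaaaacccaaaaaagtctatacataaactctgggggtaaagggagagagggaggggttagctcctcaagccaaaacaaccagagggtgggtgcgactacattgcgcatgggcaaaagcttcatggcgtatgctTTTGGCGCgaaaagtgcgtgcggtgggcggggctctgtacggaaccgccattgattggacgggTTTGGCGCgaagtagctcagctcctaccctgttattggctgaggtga
Mcm3: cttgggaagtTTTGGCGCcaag
Mcm5: aagaactttcGCGCCAAAacgtccagcc
Cdt1: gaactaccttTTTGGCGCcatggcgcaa
Mcm7: atttcgaaccGCGGGAAAcagggtgtcc
Cdc6: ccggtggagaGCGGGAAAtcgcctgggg
In Mcm3 and Cdt1 the match lies after the start site, at +39 and +33. In Mcm5, Mcm7 and Cdc6 it lies before the RefSeq start site, at -149, -165 and -138, on the opposite strand. For Cdc6 that site lies inside the locus given above, and so does the match. For Mcm3, Mcm6 and the Mcm7 window shown, the RefSeq start site lies outside that gene's locus, on the upstream side. Mcm7 has another window, chr5:138171217-138171516, which holds no E2F-type word. These are matches of letters only, and they were set against no binding data.

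Mcm2 to Mcm7 are the ATPases that form the ring of the helicase. Mcm7 had 132, 156 and 54.5 FPKM in Cbx2-/- replicates 1, 2 and 3, against 197, 166 and 211 FPKM in wild-type replicates 1, 2 and 3. Mcm6 had 107, 128 and 49.7 FPKM in the Cbx2-/- libraries, against 157, 134 and 141 FPKM in the wild-type libraries, in the same replicate order. Both genes were lower in every Cbx2-/- library than in any wild-type library, with Cbx2-/- replicate 2 just under the wild-type range. The difference for Mcm7 was -0.87 ± 0.37 (log2 of FPKM + 1, SE), with a 95% interval of -1.72 to -0.01 and a limma adjusted p of 0.1496. For Mcm6 it was -0.70 ± 0.33, with an interval of -1.47 to 0.06 and a limma adjusted p of 0.188.

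Mcm2 had 84.8, 109 and 34.4 FPKM in the Cbx2-/- libraries, against 144, 108 and 128 FPKM in the wild-type libraries. It was the only ring gene whose groups overlapped, because Cbx2-/- replicate 2 lay just above wild-type replicate 2. Mcm5 had 76.1, 94.4 and 31.6 FPKM in Cbx2-/- marrow, against 122, 95.1 and 108 FPKM in wild-type marrow. Mcm3 had 91.3, 97.4 and 36.5 FPKM in Cbx2-/- marrow, against 112, 98.6 and 114 FPKM in wild-type marrow. Mcm4, the ring gene with the lowest FPKM, had 44.2, 53.8 and 20.2 in Cbx2-/- marrow, against 67.8, 57.2 and 58.6 in wild-type marrow. In each of these 3, Cbx2-/- replicate 2 lay within a few FPKM of the lowest wild-type library, and Cbx2-/- replicate 3 far below it. The differences of these 4 genes ran from -0.87 ± 0.39 for Mcm2 to -0.64 ± 0.35 for Mcm3 (log2, SE), with limma adjusted p values from 0.168 to 0.256. The exact permutation test over libraries, two-sided, gave p = 0.1 for the 7 genes without overlap, which is the smallest p that 3 against 3 libraries allow, and p = 0.2 for the other three.

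The ring genes kept nearly the same proportions to each other while their sum varied. Summed over Mcm2 to Mcm7, FPKM was 534.6, 638 and 226.9 in Cbx2-/- replicates 1, 2 and 3, against 798.8, 659.1 and 761.1 in wild-type replicates 1, 2 and 3. Mcm7 supplied 24.6%, 24.4% and 24.0% of that sum in Cbx2-/- libraries, against 24.6%, 25.2% and 27.8% in wild-type libraries. Mcm4 supplied 8.27%, 8.44% and 8.89% in Cbx2-/- libraries, against 8.49%, 8.67% and 7.70% in wild-type libraries. So the library with the lowest sum, Cbx2-/- replicate 3, had close to the same makeup as the others. Mcm3 alone among the 6 had shares that did not overlap, at 17.1%, 15.3% and 16.1% in Cbx2-/- libraries, against 14.0%, 14.95% and 14.9% in wild-type libraries. That share was singled out after its values were seen. The highest ring gene exceeded the lowest 2.98, 2.89 and 2.70 times in Cbx2-/- libraries, against 2.90, 2.90 and 3.61 times in wild-type libraries.

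Cdc6 and Cdt1, the loading factors, differed from each other in how far they lay below wild type. Cdc6, the ATPase that recruits the ring to origin-bound ORC, had 13.4, 20.5 and 5.40 FPKM in Cbx2-/- replicates 1, 2 and 3, against 29.9, 29.3 and 29.2 FPKM in wild-type replicates 1, 2 and 3. Its wild-type libraries were nearly equal, and all 3 Cbx2-/- libraries lay well below them. Cdc6 averaged 13.1 ± 7.53 FPKM in Cbx2-/- marrow and 29.5 ± 0.398 FPKM in wild-type marrow (SD, n = 3 each). The difference was -1.28 ± 0.39 (log2, SE), with a 95% interval of -2.17 to -0.39, and its limma adjusted p of 0.0578 missed the threshold of 0.05. That p was 0.0435 under median ratio scaling, 0.0393 under upper quartile scaling and 0.0217 when FPKM was rescaled without haemoglobin genes. It was 0.064 with a pseudocount of 0.1, 0.112 with no filter on low values, and 0.158 to 0.165 without any 1 of the wild-type libraries. Of the tested genes, 2.63% had a difference as low as that of Cdc6.

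Cdt1, which brings the ring to Cdc6 and ORC, had 68.7, 87.3 and 31.7 FPKM in Cbx2-/- marrow, against 94.7, 85.5 and 96.9 FPKM in wild-type marrow. Cbx2-/- replicate 2 lay above the lowest wild-type library, so the groups overlapped. The difference was -0.67 ± 0.34 (log2, SE), with a limma adjusted p of 0.219. Cdc6 stood at 19.6%, 23.4% and 17.01% of the FPKM of Cdt1 in Cbx2-/- replicates 1, 2 and 3, against 31.6%, 34.3% and 30.1% in wild-type replicates 1, 2 and 3. Relative to the mean of Mcm2 to Mcm7, Cdc6 stood at 15.1%, 19.2% and 14.3% in Cbx2-/- libraries, against 22.5%, 26.7% and 23.0% in wild-type libraries. Neither ratio overlapped between the genotypes (exact permutation test, two-sided, p = 0.1 for each), and both were chosen after the values of Cdc6 were seen. Cdt1 relative to the ring genes was at 77.1%, 82.1% and 83.9% in Cbx2-/- libraries, against 71.2%, 77.8% and 76.4% in wild-type libraries, with overlapping groups.

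**Figure D2:**
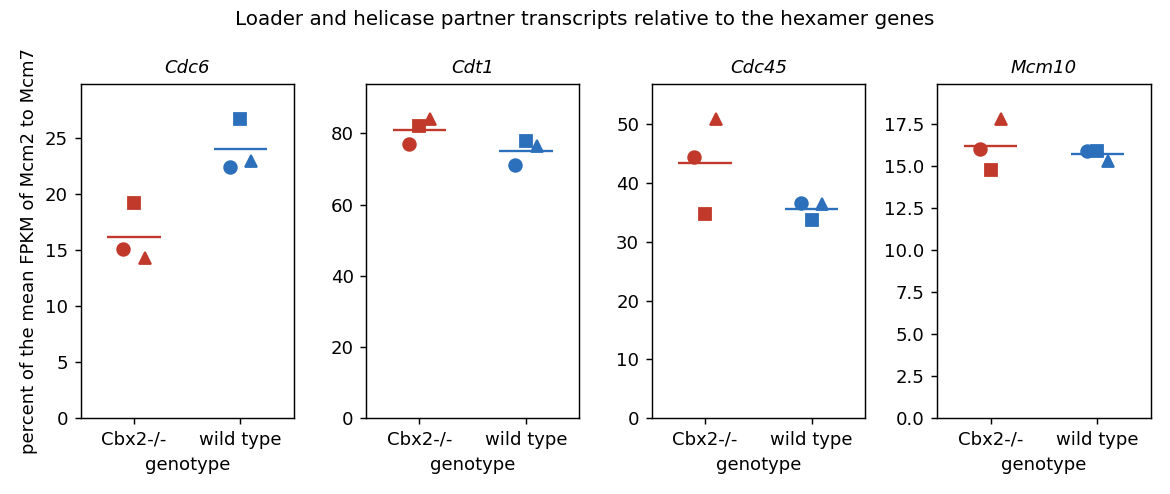
FPKM of Cdc6, Cdt1, Cdc45 and Mcm10 as a percent of the mean FPKM of Mcm2 to Mcm7 in the same library, with 1 point per library. Cdc6 lies at 14.3% to 19.2% in Cbx2-/- libraries and at 22.5% to 26.7% in wild-type libraries, while the other three overlap.

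Cdc45 and Mcm10 act when the loaded ring is switched on. Cdc45, a subunit of the moving helicase, had 39.6, 37.0 and 19.2 FPKM in Cbx2-/- marrow, against 48.7, 37.1 and 46.1 FPKM in wild-type marrow. Mcm10, which helps the helicase to start and is not a ring subunit, had 14.2, 15.7 and 6.72 FPKM in Cbx2-/- marrow, against 21.1, 17.5 and 19.4 FPKM in wild-type marrow. Cbx2-/- replicates 1 and 2 were close to each other in both genes. Cdc45 had the smallest difference of the 10 genes, -0.51 ± 0.28 (log2, SE; limma adjusted p = 0.249), and Mcm10 had -0.70 ± 0.28 (limma adjusted p = 0.133). In Mcm10 no Cbx2-/- library reached the lowest wild-type library, whereas in Cdc45 the groups overlapped.

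**Figure D3:**
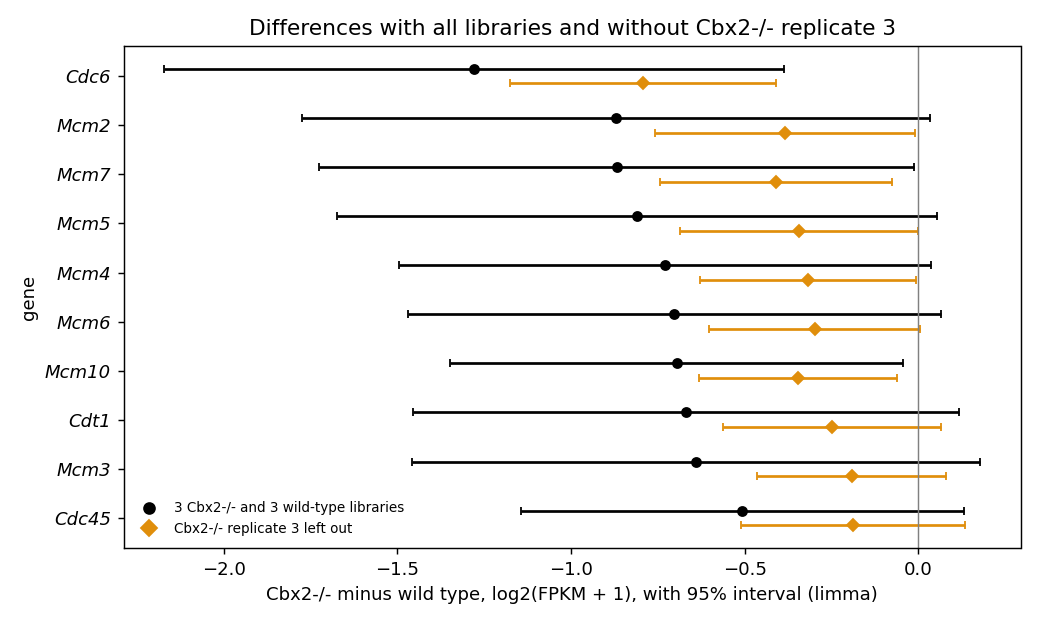
Cbx2-/- minus wild-type differences of the 10 genes on the log2(FPKM + 1) scale, with limma 95% intervals, over all 6 libraries and without Cbx2-/- replicate 3. All points lie below 0, and the values without Cbx2-/- replicate 3 lie nearer to 0 than those over all libraries.

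Read library by library, the 10 genes split the Cbx2-/- mice. In Cbx2-/- replicate 1 the genes stood at 45.6% (Cdc6) to 89.9% (Cdc45) of their wild-type means, with a median of 72.9%. In Cbx2-/- replicate 2 they stood at 69.4% (Cdc6) to 94.5% (Cdt1), with a median of 86.6%. In Cbx2-/- replicate 3 they stood at 18.3% (Cdc6) to 43.7% (Cdc45), with a median of 33.4%. Cdc6 was thus the lowest of the 10 in each of the 3 Cbx2-/- libraries. Over all tested genes, the medians of the same measure were 104%, 105% and 96.3%, so the low values of replicate 3 were not shared by most genes. In Cbx2-/- replicates 1, 2 and 3, 9, 8 and 10 of the 10 genes were below every wild-type library, against 33.7%, 31.5% and 43.5% of the tested genes. The coefficient of variation of a gene was 34.7% to 57.5% over the Cbx2-/- libraries and 1.35% to 14.1% over the wild-type libraries.

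**Figure D4:**
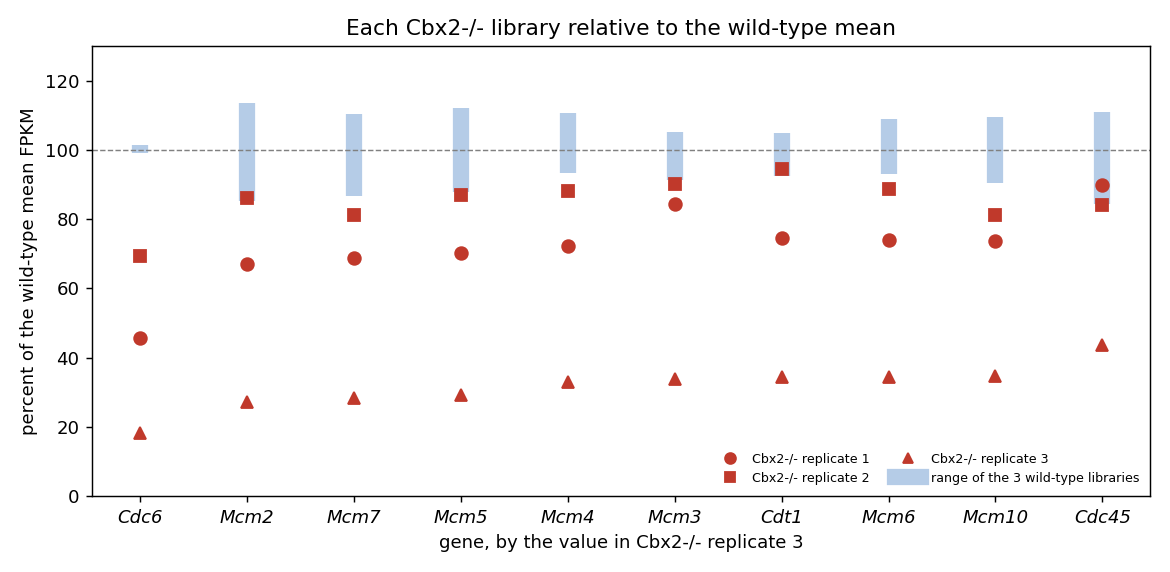
FPKM of each of the 10 genes in a Cbx2-/- library as a percent of the wild-type mean, with 1 point per library. Replicate 3 lies at 18.3% to 43.7%, and replicates 1 and 2 lie at 45.6% to 94.5%.

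Which Cbx2-/- libraries were used changed the calls. Without Cbx2-/- replicate 3, 1 of 10 genes was called lower, against 14.6% of the tested genes. This was Cdc6, at -0.79 ± 0.17 (log2, SE; limma adjusted p = 0.00957). Without Cbx2-/- replicate 2 it was again Cdc6 alone, at -1.66 (limma adjusted p = 0.0133). Without Cbx2-/- replicate 1, 0 of 10 were called, and Cdc6 had -1.38 (limma adjusted p = 0.108). Without replicate 3, the other 9 genes had differences of -0.41 for Mcm7 to -0.19 for Cdc45, with limma adjusted p values of 0.0637 to 0.339. With Cbx2-/- replicate 3 as the only Cbx2-/- library, the differences of the 10 genes ran from -2.25 for Cdc6 to -1.14 for Cdc45. The spread among Cbx2-/- mice does not enter that fit, so no calls are given for it. Cbx2-/- replicates 1 and 2 are the libraries with skeletal muscle transcripts, and replicate 3 has the largest haemoglobin share. The part of either in the licensing values was not tested.

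The order of the 10 genes by mean FPKM, a level per transcript length, was nearly the same in both genotypes. In Cbx2-/- marrow it was Mcm7, Mcm6, Mcm2, Mcm3, Mcm5, Cdt1, Mcm4, Cdc45, Cdc6 and Mcm10, and the ranges of all neighbours overlapped. In wild-type marrow Mcm5 stood before Mcm3, and the order was otherwise that of Cbx2-/- marrow. Ranges of wild-type neighbours overlapped between Mcm6 and Mcm2, Mcm2 and Mcm5, and Mcm5 and Mcm3, and not between the others. Cdc6 had more FPKM than Mcm10 in 1 of 3 Cbx2-/- libraries and in 3 of 3 wild-type libraries.

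Across the 6 libraries the 10 genes ran closely parallel. The Pearson r of a gene with the mean of the other members was 0.963 for Cdc45 to 0.998 for Mcm5, on log2(FPKM + 1), and 0.966 for Cdc6. These values describe 6 libraries that share genotype and scaling, and Cbx2-/- replicate 3 lies far from the rest. Among 7855 genes outside the lists with a mean of at least 5 FPKM, 396 had an r over 0.95 with the mean pattern of the members. The highest were Ctbp1 (0.9992), Naa40 (0.9991), Ppp2r4 (0.9988), Rgs12 (0.9987) and Gga2 (0.9985). Ctbp1, which encodes a transcriptional co-repressor, had 137.5, 157.6 and 82.5 FPKM in Cbx2-/- libraries, against 183.5, 161.5 and 177.9 FPKM in wild-type libraries.

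Upstream of the ring, 1 of 6 tested genes of the origin recognition complex was called lower and 0 were called higher, against 8.31% and 8.8% of all tested genes. The median difference was -0.29 (log2), against 0.02 over all tested genes. Orc1, the largest subunit and an ATPase, fell to 6.52, 7.81 and 2.86 FPKM in Cbx2-/- libraries, against 13.6, 11.1 and 11.5 FPKM in wild-type libraries (limma adjusted p = 0.0456). Cbx2-/- replicate 3 was again the lowest, and the call was lost in 4 of 6 fits that left out 1 library. Orc6, the smallest subunit, had 27.7, 33.8 and 13.6 FPKM in Cbx2-/- libraries, against 42.9, 38.6 and 41.4 FPKM in wild-type libraries (limma adjusted p = 0.116).

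Of 11 genes that control licensing, 3 were called lower and 0 higher, against 8.31% and 8.8% of all tested genes. The median difference was -0.42 (log2). Fzr1, the Cdh1 activator of the anaphase-promoting complex, fell to 75.8, 79.2 and 61.6 FPKM in Cbx2-/- libraries, against 172, 158 and 184 FPKM in wild-type libraries. Here all 3 Cbx2-/- libraries were near each other and far below wild type, with a difference of -1.24 (log2; limma adjusted p = 0.00371) that was called in 6 of 6 fits leaving out 1 library. Fbxo5, an inhibitor of the anaphase-promoting complex, fell to 25.3, 29.1 and 12.3 FPKM in Cbx2-/- libraries, against 55.4, 59.6 and 52.3 FPKM in wild-type libraries (limma adjusted p = 0.0176, call lost in 3 of 6 fits). The third was Cul4a, a cullin of the ligase that degrades Cdt1, named after its value was seen, with a limma adjusted p of 0.0367 that was lost in 5 of 6 fits. Gmnn, which encodes geminin and was likewise picked for its role, had 66.6, 76.0 and 28.0 FPKM in Cbx2-/- libraries, against 82.8, 87.1 and 113.6 FPKM in wild-type libraries (limma adjusted p = 0.154). In Gmnn, as in the ring genes, Cbx2-/- replicate 3 held the lowest value.

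Downstream, 1 of 11 origin firing genes was called lower, against 8.31% of all tested genes, with a median difference of -0.44 (log2). Donson, a factor of helicase assembly and fork stability, fell to 10.2, 13.8 and 9.31 FPKM in Cbx2-/- libraries, against 23.7, 18.2 and 18.1 FPKM in wild-type libraries (limma adjusted p = 0.0238). Of 28 replication fork genes, 1 was called lower, against the same 8.31% of all tested genes, with a median of -0.64 (log2). This was Wdhd1, which links the helicase to DNA polymerase alpha, at 14.99, 18.2 and 11.6 FPKM in Cbx2-/- libraries, against 26.0, 24.8 and 25.4 FPKM in wild-type libraries (limma adjusted p = 0.0241). Both calls were lost in 4 of 6 fits that left out 1 library. Gins3, a GINS subunit, had 5.12, 6.13 and 2.83 FPKM in Cbx2-/- libraries, against 9.39, 7.95 and 7.02 FPKM in wild-type libraries (limma adjusted p = 0.0746). Pola1, the catalytic subunit of DNA polymerase alpha, had 7.99, 7.87 and 3.47 FPKM in Cbx2-/- libraries, against 13.5, 13.8 and 10.4 FPKM in wild-type libraries (limma adjusted p = 0.0565). Neither overlapped between genotypes, and both had their lowest value in Cbx2-/- replicate 3.

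Among 8 nucleotide supply genes, 1 was called lower, with a median of -0.82 (log2). Dck, the deoxycytidine kinase of nucleotide salvage, fell to 22.2, 29.1 and 15.7 FPKM in Cbx2-/- libraries, against 68.5, 68.1 and 55.6 FPKM in wild-type libraries (limma adjusted p = 0.00512). Rrm2, the small subunit of ribonucleotide reductase, had 127.8, 177.2 and 41.3 FPKM in Cbx2-/- libraries, against 306.5, 251.6 and 268.9 FPKM in wild-type libraries (limma adjusted p = 0.0712). Dck was called in 6 of 6 fits that left out 1 library. Taking these 5 lists as one, 7 of 64 genes were called lower (10.9%), near the 8.31% of all tested genes. In 62 of 64 the difference was below 0, against 5783 of all 12006 tested genes. Of the 28 fork genes, 9 were called lower without Cbx2-/- replicate 3, 10 without Cbx2-/- replicate 2 and 0 without any other single library. Over all tested genes, the share called lower was 14.6% without Cbx2-/- replicate 3 and 9.14% without Cbx2-/- replicate 2. It was 3.11% to 4.59% without any other single library. This share and the fork count were both highest without Cbx2-/- replicate 2 or 3, but in opposite order. Leaving out Cbx2-/- replicate 2 or 3 gave 2 and 2 calls for the origin recognition complex, 2 and 3 for licensing control, 3 and 2 for origin firing, and 4 and 3 for nucleotide supply. Leaving out any other single library gave 0 calls for the origin recognition complex, 1 to 2 for licensing control, 0 for origin firing and 1 for nucleotide supply.

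The E2F and pocket protein genes, which encode regulators of this transcription programme, held 3 of 13 called lower and 0 called higher. Over all tested genes, 8.31% were called lower and 8.8% higher. The median difference of the list was -0.58 (log2). Tfdp2, a dimer partner of E2F factors, fell to 12.3, 13.3 and 23.4 FPKM in Cbx2-/- libraries, against 41.8, 49.3 and 40.7 FPKM in wild-type libraries (limma adjusted p = 0.00784). E2f2, an activating E2F, fell to 63.2, 69.6 and 70.6 FPKM in Cbx2-/- libraries, against 122.0, 114.3 and 114.8 FPKM in wild-type libraries (limma adjusted p = 0.0117). Unlike the licensing genes, both had their highest Cbx2-/- value in replicate 3. The list as a whole was lowest in that replicate, as the licensing genes were. Its mean log2 value lay at -0.44, -0.33 and -0.70 relative to wild type in Cbx2-/- replicates 1, 2 and 3. The third was Rb1, the retinoblastoma pocket protein, with a limma adjusted p of 0.0255. The calls of E2f2 and Rb1 were each lost in 4 of 6 fits that left out 1 library, and that of Tfdp2 in 0. Without Cbx2-/- replicate 2 or 3, 5 of these genes were called lower, against 9.14% and 14.6% of the tested genes. Without any other single library 1 was, against 3.11% to 4.59%.

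Genes of mitosis, the later phase of the same cycle, were read for comparison. Of 20, 11 were called lower and 0 higher, against 8.31% and 8.8% of all tested genes, with a median of -0.78 (log2). All 20 lay lower in every Cbx2-/- library than in any wild-type library, against 18.2% of all tested genes. The count called lower was 14 without Cbx2-/- replicate 2, 15 without Cbx2-/- replicate 3, 6 without Cbx2-/- replicate 1, and 3, 4 and 2 without wild-type replicates 1, 2 and 3. In those 6 fits the share of all tested genes called lower was 9.14%, 14.6%, 4.59%, 3.11%, 3.16% and 3.48%, in the same order. Mki67, a marker of cycling cells, fell to 58.9, 59.3 and 59.2 FPKM in Cbx2-/- libraries, against 122.3, 116.5 and 131.0 FPKM in wild-type libraries (limma adjusted p = 0.00377). Cenpf, a kinetochore protein gene, fell to 5.49, 5.05 and 5.39 FPKM in Cbx2-/- libraries, against 11.01, 11.5 and 13.1 FPKM in wild-type libraries (limma adjusted p = 0.00246). In both, the 3 Cbx2-/- libraries were nearly equal, but both were named for a low adjusted p, which favours genes of little spread. As a whole, the mitosis list was lowest in Cbx2-/- replicate 3, as the licensing genes were. Among the licensing genes, Cbx2-/- replicate 2 exceeded replicate 3 by 1.92-fold for Cdc45 to 3.79-fold for Cdc6. The mean log2 value of the mitosis list lay 0.62, 0.59 and 1.35 below the wild-type mean in Cbx2-/- replicates 1, 2 and 3. For the licensing genes the same measure lay 0.48, 0.23 and 1.63 below it. The licensing mean minus the mitosis mean, relative to wild type, was 0.14, 0.36 and -0.28 in Cbx2-/- replicates 1, 2 and 3, against 0.10, -0.10 and -0.00 in wild-type replicates 1, 2 and 3. It therefore had no common direction in the Cbx2-/- mice.

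**Figure D5:**
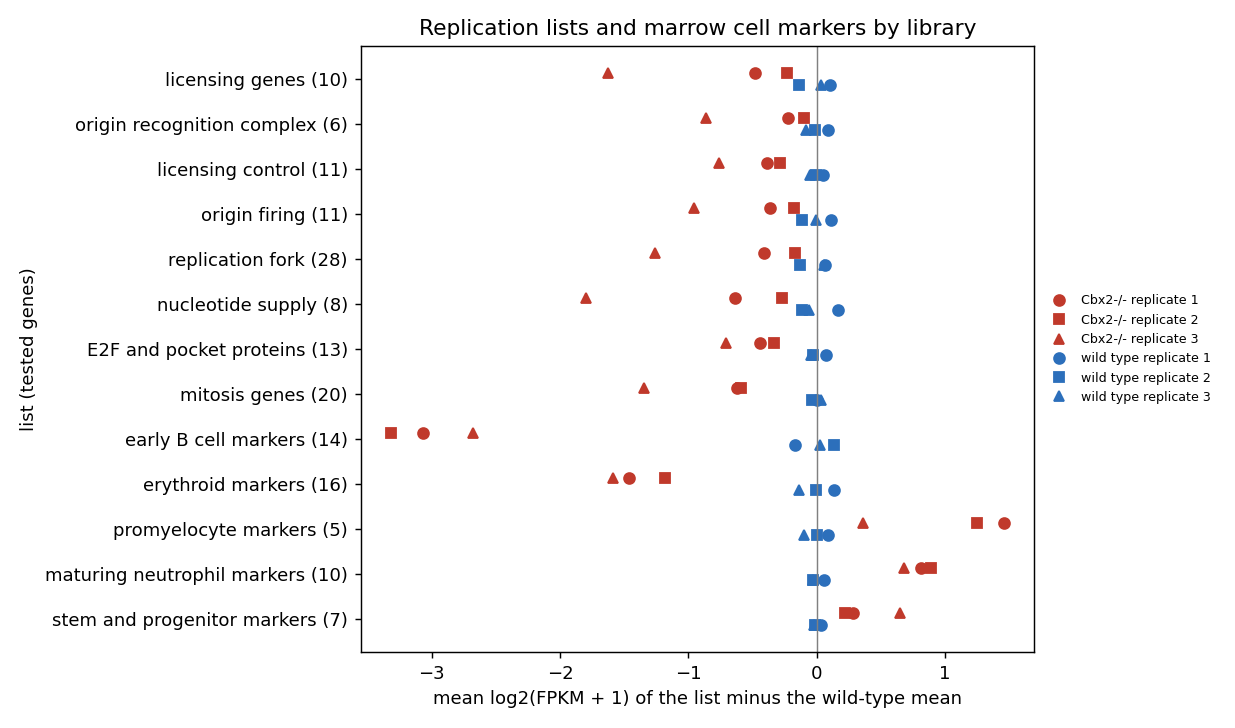
Mean log2(FPKM + 1) of each gene list in a library minus its wild-type mean, with 1 point per library. The licensing genes lie at -0.48, -0.23 and -1.63 in Cbx2-/- replicates 1, 2 and 3. The other replication lists and the E2F, mitosis, erythroid and maturing neutrophil lists show the same order of the 3 libraries. The early B cell, promyelocyte, and stem and progenitor lists do not.

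Markers of marrow cell types that divide moved with genotype as well. Early B cell markers summed to 114.8 to 235.6 FPKM in Cbx2-/- libraries, against 1058 to 1316 FPKM in wild-type libraries. Of these, 13 of 14 were called lower, against 8.31% of all tested genes, and Vpreb2 was at 0 in at least 1 library. Some of the 14 reached 1 FPKM in wild-type libraries only and were tested through these alone. Without any 1 of the wild-type libraries, 11 were still tested and 10 of them were called lower. Vpreb1, which pairs with the heavy chain before a light chain is made, fell to 1.05, 0.547 and 0.255 FPKM in Cbx2-/- libraries, against 37.7, 41.8 and 52.2 FPKM in wild-type libraries (limma adjusted p = 0.000104). Erythroid markers summed to 1572 to 2273 FPKM in Cbx2-/- libraries, against 3439 to 4136 FPKM in wild-type libraries. Of these, 13 of 16 were called lower, against 8.31% of all tested genes. Much of the erythroid sum was Alas2, the first enzyme of haem synthesis in erythroid cells, at 939.7, 494.3 and 1534 FPKM in Cbx2-/- replicates 1, 2 and 3, against 1268, 1312 and 1125 FPKM in wild-type replicates 1, 2 and 3. It was the only erythroid marker whose groups overlapped, and it is singled out after its values were seen. By mean log2 value, replicates 1, 2 and 3 lay at -3.07, -3.32 and -2.68 relative to wild type for the early B cell markers, and at -1.46, -1.18 and -1.59 for the erythroid markers.

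Promyelocyte markers summed to 4972, 4421 and 2309 FPKM in Cbx2-/- replicates 1, 2 and 3, against 1873 to 2080 FPKM in wild-type libraries, with 2 of 5 called higher. Ctsg, the cathepsin G of primary granules, rose to 587.8, 443.9 and 300.2 FPKM in Cbx2-/- libraries, against 179.4, 155.6 and 141.7 FPKM in wild-type libraries (limma adjusted p = 0.0109, call lost in 2 of 6 fits). Replicate 3 was thus the lowest Cbx2-/- library for these markers, as it was for the licensing genes, but its sum still lay above the wild-type range. By mean log2 value it was also the lowest Cbx2-/- library for the erythroid and maturing neutrophil markers. For the early B cell markers and the stem and progenitor markers it was the highest. The count of 2 became 5 without Cbx2-/- replicate 3, 0 without wild-type replicate 2 or 3, and 1 without any other single library. Maturing neutrophil markers summed to 54958 to 84293 FPKM in Cbx2-/- libraries, against 38007 to 43150 FPKM in wild-type libraries, with 3 of 10 called higher. That count became 10 without Cbx2-/- replicate 3, 4 without replicate 2, 2 without replicate 1, and 0 without any 1 of the wild-type libraries. Over all tested genes, 16.8% were called higher without Cbx2-/- replicate 3 and 2.67% to 7.38% without any other single library. Stem and progenitor markers summed to 54.9 to 72.8 FPKM in Cbx2-/- libraries, against 40.9 to 47.8 FPKM in wild-type libraries, with 2 of 7 called higher (1 without wild-type replicate 1). Adipocyte markers held 6 of 7 called higher, osteoblast markers 6 of 9 called lower, and skeletal muscle markers 0 of 4 called, with Myh4 at 0 in at least 1 library. Some of the adipocyte and muscle markers passed the filter only through their high Cbx2-/- values. With all 6 libraries, 8.8% of all tested genes were called higher and 8.31% lower. Without Cbx2-/- replicate 3, 4 of 4 muscle markers were called higher. The part of these cell types in the licensing values was not tested.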

How the data were processed

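The authors deposited 1 table of FPKM values per gene for 6 libraries, made from poly(A) RNA with a stranded kit and 50-base single-end reads on a HiSeq 1000, per the labels' protocols. FastQC 0.11.5, TopHat2 2.1.0, Cufflinks 2.2.1 and build mm10 come from the submitters' processing notes, and no source used here gives their settings, the gene annotation or the read totals. The 12 columns of confidence limits were not used, since lower and upper limits were equal in every row. Of all values, 8 had a status other than OK, and 0 of these were of the licensing genes.

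FPKM is relative: a gene's value falls when other transcripts take more of the reads. Values were analysed as log2(FPKM + 1), which understates changes of low genes. The 12006 genes that reached 1 FPKM in 3 or more libraries were tested with limma 3.58.1 in R 4.3.3 (mean-variance trend, two-sided, no block, Benjamini-Hochberg over all tested genes, threshold 0.05), tested on simulated data. Spreads are SD over 3 mice unless named SE. Single values were compared with exact permutation tests (scipy 1.17.1), and figures were drawn with matplotlib 3.10.9. The 10 genes, the 15 other lists and the tests were chosen with earlier results of these data known. Named are the 10 genes, Cbx2, genes from the 2 lowest adjusted p values of a list, and the 5 genes of most similar pattern. Named outside that rule are Cul4a, Rb1 and Alas2, after their values were seen, Gmnn for its role, and genes that overlap a licensing gene or stood at 0. Other scalings, filters, pseudocounts, limma settings, left-out libraries and the replicate number as a block were tried.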

Additional observations from a re-analysis of the deposited data

How the results depend on the processing

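Over all libraries 0 of the 10 licensing genes were called lower and 0 higher in limma. No alternative reversed a difference, and none called a licensing gene higher. Other pseudocounts, other filters, a fit without trend and the replicate block also called 0. Median ratio scaling and upper quartile scaling each called 1 lower, scaling to the summed FPKM without haemoglobin called 2, and array weights called 8. The weights were 5.83, 0.699 and 0.126 for Cbx2-/- replicates 1, 2 and 3, and 1.15 to 1.42 for wild-type libraries. That fit therefore rests mostly on Cbx2-/- replicate 1 among the Cbx2-/- libraries. Leaving out 1 library called 0 to 1. Leaving out both Cbx2-/- replicates 1 and 2 left 1 Cbx2-/- library, so no count is given for that fit. Across the settings the limma adjusted p of Cdc6 was at most 0.165, and it was 0.00957 without Cbx2-/- replicate 3. Over all tested genes, 998 were lower and 1057 higher. Scaling without haemoglobin gave 986 lower and 596 higher, array weights 2684 and 3278, the replicate block 734 and 634, and leaving out both replicates 2732 and 1929. Leaving out 1 library gave 368 to 1717 lower (1717 without Cbx2-/- replicate 3) and 315 to 1979 higher. Whether the replicate numbers pair mice is unknown. The deviations of same-numbered libraries correlated at 0.19, -0.18 and -0.1, and those of differently numbered libraries at -0.26 to 0.27. With 3 libraries per genotype these values cannot settle it. Read totals are unknown, and 3 mice per genotype limit the precision.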
